A study of Rattus norvegicus albus with 6 samples.

Results

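Aminoacyl-tRNA synthetases are the enzymes that load each amino acid onto its transfer RNA (tRNA). The set followed here is a list of 35 rat synthetase genes, 19 that serve the cytosol and 16 that serve mitochondria. A gene was taken as measured where a probe set carried its symbol alone. Where several did, the one with the highest average level was used. By that rule 30 of the 35 were measured, of 14322 named genes on the array: all 19 cytosolic genes and 11 of the 16 mitochondrial genes. All 30 lay above the level filter, a mean log2 level of 6.39. Cars2, Ears2, Iars2, Mars2 and Wars2 were not analysed here.

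The cells were primary hepatic stellate cells of rats, the liver cells that make scar matrix once activated, and all had been activated by 7 days of culture on plastic in medium with 10% serum. The 3 treatments each act at another step of canonical Wnt signalling. Ad.DKK-1 is an adenovirus that expresses DKK-1, a secreted antagonist of the LRP co-receptors, and was given at a multiplicity of infection of 200 for 24 h in 5% serum, with a further 24 h without serum. Its control was Ad.GFP, an adenovirus expressing green fluorescent protein, at the same multiplicity and times. ICG-001, which keeps the coactivator CBP from beta-catenin, was used at a dose of 10 µM, and its control was vehicle. FJ9, which blocks the binding of Frizzled to Dishevelled, was given at 200 µM, and its control was a vehicle array of its own. Both compounds and both vehicles were applied for 24 h without serum. The RNA of 3 to 4 rats was pooled for each of the 6 groups and run on 1 array. No group had a replicate, and no treatment could be tested alone. The sources used here do not give the animals' age. The doses, times and carriers differed between treatments, so their values stand side by side with no comparison of potency.

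Each compartment that makes protein needs its own supply of charged tRNA. The cytosolic enzymes and the mitochondrial enzymes are mostly products of separate nuclear genes, although Kars1 and Gars1 each encode enzyme for both places. In the cytosol, several synthetases sit with 3 scaffold proteins in the multi-tRNA synthetase complex, and the others act outside it. By the fold of their catalytic domain the enzymes fall into class I and class II. When amino acids run short, uncharged tRNA activates the kinase GCN2, translation of the transcription factor ATF4 goes up, and the cytosolic synthetase genes are among the genes that ATF4 is known to switch on. In stellate cells, activation brings heavy synthesis of collagen and other secreted proteins, which draws on the same charged tRNA.

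The values are log2 expression levels as deposited, and a difference is a treated array minus its own control on that log2 scale. A gene was counted as higher or lower when it differed by at least 1.5-fold, which is 0.585 on the log2 scale. Levels depend on the probes, so no gene's level was set against another's. The array medians over all probe sets were 7.01 (Ad.DKK-1) and 7.11 (Ad.GFP), 7.11 (ICG-001) and 7.28 (its vehicle), and 7.15 for FJ9 as for its vehicle. The stellate cell genes Vim, Col1a1 and Col1a2 lay between 12.2 and 13.1 on every array, but other stellate markers were not steady. Rgs5 differed by −3.12, −2.83 and −1.17 and Lrat by −1.31, −1.42 and −3.34 under Ad.DKK-1, ICG-001 and FJ9. Of 13 measured stellate markers, 7, 2 and 6 were lower and 0, 1 and 0 higher in the same order. In pooled cells, a change in cell make-up and a change in RNA per cell cannot be told apart.

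The cytosolic synthetases were higher as a group under every treatment. Under Ad.DKK-1, 14 of the 19 genes were at least 1.5-fold higher than with Ad.GFP, against 14.5% of the 10025 genes past the level filter. Under ICG-001 the count was 9 of 19 against 12.6% of all genes, and under FJ9 it was 9 of 19 against 11.6%. No cytosolic gene was 1.5-fold lower under any treatment, while 20.8%, 13.1% and 14.8% of all genes were lower under Ad.DKK-1, ICG-001 and FJ9. Differences above 0 were found for 18 of 19 genes under Ad.DKK-1 (46.2% of all genes), 17 under ICG-001 (50.7%), 19 under FJ9 (50.8%) and 11 between the vehicle arrays (54.3%). The median difference of the 19 genes was 0.79 under Ad.DKK-1, 0.58 with ICG-001 and 0.58 with FJ9, beside −0.07, 0.01 and 0.01 over all genes. Between the vehicle arrays, FJ9's minus ICG-001's, none of the 19 was past 1.5-fold and their median was 0.04, with 2.44% of all genes higher and 5.2% lower.

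The mitochondrial synthetases had their largest count under ICG-001 when each compound was set against its own vehicle. Of the 11 measured, 3 were at least 1.5-fold higher under Ad.DKK-1, 7 with ICG-001 and 4 with FJ9. The shares over all genes were 14.5%, 12.6% and 11.6%. Their median difference was 0.33 under Ad.DKK-1, 0.67 with ICG-001 and 0.35 with FJ9. Against the other compound's vehicle the counts were 7 for ICG-001 and 6 for FJ9 and the medians were 0.60 and 0.61, and no test between the compounds was made. One gene, Aars2, was 1.5-fold lower under Ad.DKK-1 (20.8% of all genes). None was lower under ICG-001 (13.1%) or FJ9 (14.8%). The Ad.DKK-1 count was 0 with centred, quantile-normalized or loess-corrected values. None was past 1.5-fold between the vehicle arrays, where their median was 0.05. Larger differences were few: at 2-fold or more, Ad.DKK-1 had 5 cytosolic and 0 mitochondrial genes higher, ICG-001 had 0 and 2, and FJ9 had 0 and 1, beside 3.99%, 2.89% and 2.44% of all genes.

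**Figure D1:**
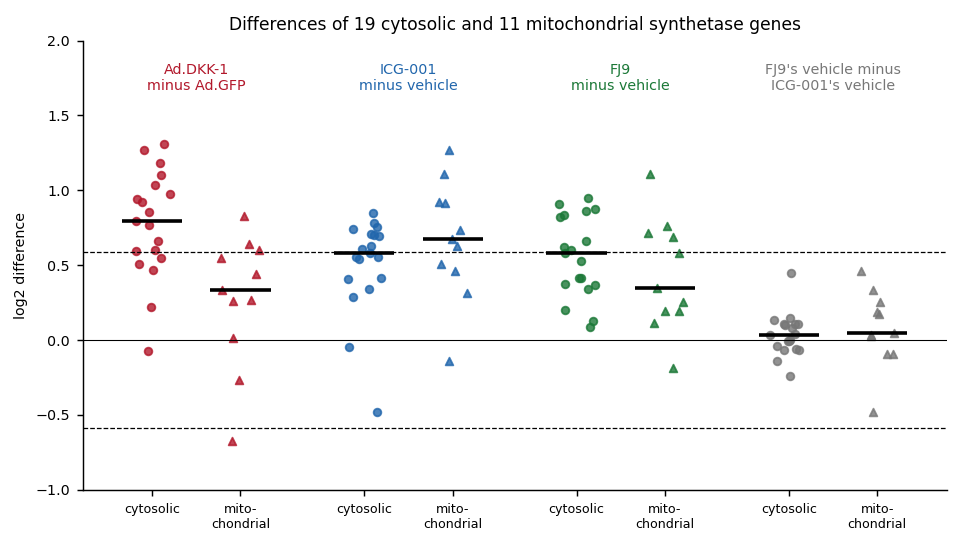
Treated minus own control difference (log2) of every measured synthetase gene under Ad.DKK-1, ICG-001 and FJ9, with the difference between the vehicle arrays beside them, 1 array a group. Thick lines are medians over genes and dashed lines mark 1.5-fold. The cytosolic medians are 0.79, 0.58 and 0.58 in the order of treatments above, the mitochondrial medians are 0.33, 0.67 and 0.35, and the vehicle medians are near 0.

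Of the 19 cytosolic genes, 5 were at least 1.5-fold higher under all 3 treatments: Eprs1, Sars1, Vars1, Wars1 and Yars1. Over all genes this share was 2.41%. A further 6 were higher under 2 treatments, 5 under 1 and 3 under none. None of the 11 mitochondrial genes was higher under all 3, and no synthetase was lower under all 3, against 3.14% of all genes. Of them 6 were higher under 2 treatments and 2 under 1. By sign alone, 17 cytosolic and 8 mitochondrial genes had differences above 0 under all 3 treatments, against 23.6% of all genes. The 1.5-fold line runs through a crowded stretch: 16 of the members' differences lay within 0.05 of it. Rars1 under ICG-001 (0.583), Nars2 under FJ9 (0.583) and Farsb under FJ9 (0.582) stood just under the line, and Aars1 under Ad.DKK-1 (0.594) stood just over it.

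Eprs1 encodes the joined glutamyl- and prolyl-tRNA synthetase and had the largest cytosolic difference under Ad.DKK-1. Its log2 level was 11.61 with Ad.DKK-1 and 10.30 with Ad.GFP. The level was 11.26 with ICG-001 and 10.56 with its vehicle, and 11.49 with FJ9 and 10.63 with its vehicle. All 3 treated arrays lay above all 3 controls, by 2.48-fold, 1.63-fold and 1.82-fold for Ad.DKK-1, ICG-001 and FJ9 against their own controls. Yars1, the tyrosine enzyme, had levels of 11.54 with Ad.DKK-1 and 10.27 with Ad.GFP, 11.23 with ICG-001 and 10.53 with its vehicle, and 11.21 with FJ9 and 10.39 with its vehicle. Vars1, the valine enzyme, stood at 10.55 with Ad.DKK-1 and 9.45 with Ad.GFP, 10.12 with ICG-001 and 9.51 with its vehicle, and 10.46 with FJ9 and 9.55 with its vehicle. For both genes the treated arrays again lay above every control, and the difference under Ad.DKK-1 exceeded 1 on the log2 scale.

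Sars1 loads serine, which also becomes selenocysteine on its own tRNA. Its level was 11.89 with Ad.DKK-1 and 11.03 with Ad.GFP, 11.71 with ICG-001 and 11.08 with its vehicle, and 11.97 with FJ9 and 11.02 with its vehicle. Wars1, the tryptophan enzyme, which interferon-gamma also induces in many cells, stood at 12.00 with Ad.DKK-1 and 11.02 with Ad.GFP, 11.90 with ICG-001 and 11.12 with its vehicle, and 11.73 with FJ9 and 11.12 with its vehicle. The controls of these genes lay close together, within 0.11 of each other on the log2 scale for Wars1 and 0.06 for Sars1. Every treated array was above them.

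**Figure D2:**
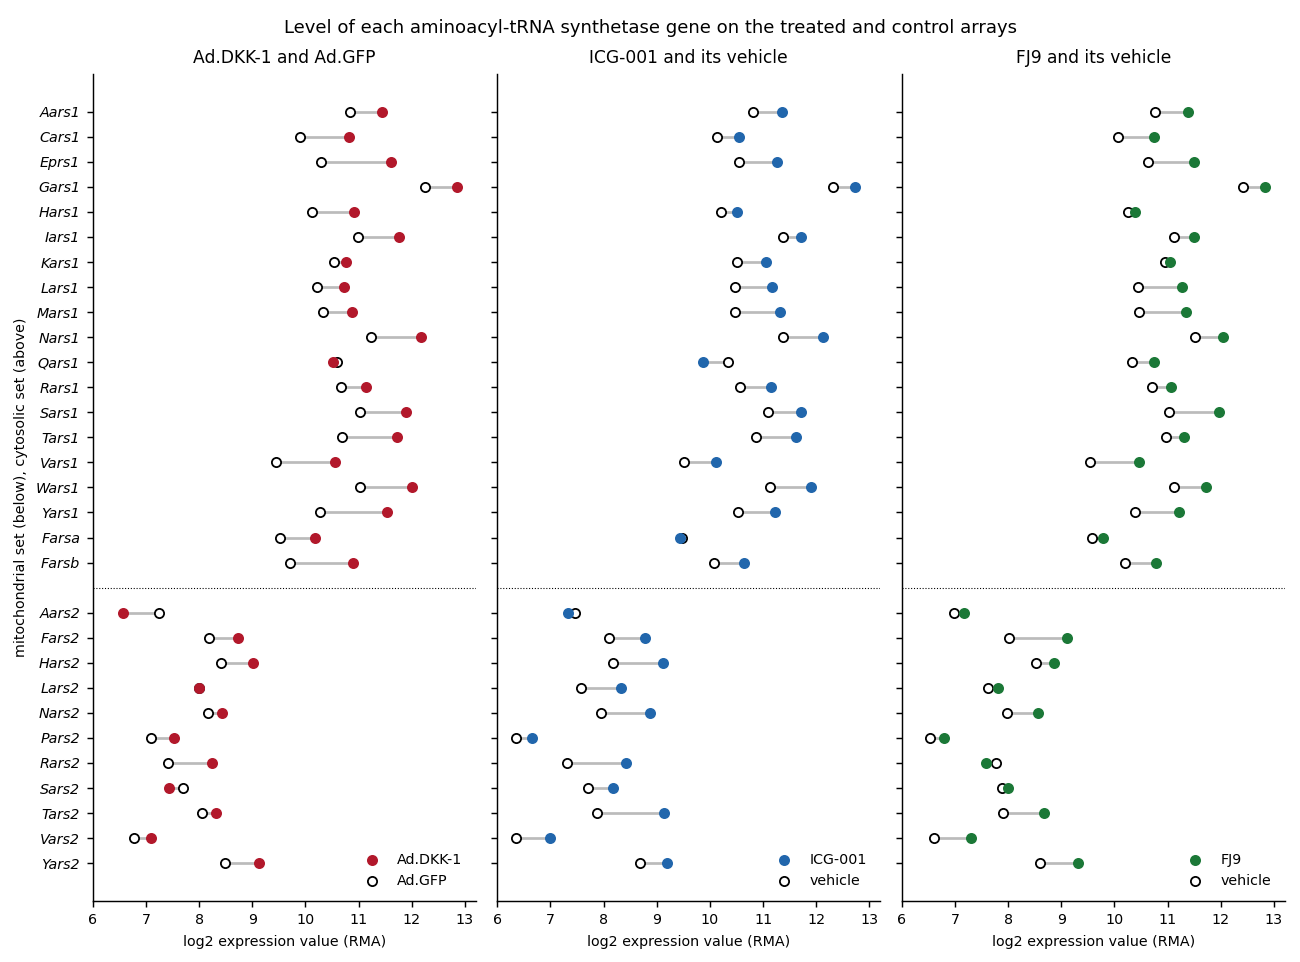
Log2 level of each measured synthetase gene on the 6 arrays, with each treated array (filled) joined to its own control (open) and 1 array a group. The treated points of Eprs1, Sars1, Vars1, Wars1 and Yars1 lie above all control points. Genes that do not follow that arrangement are Kars1, Qars1, Farsa, Aars2, Lars2, Pars2, Rars2 and Sars2.

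The 6 cytosolic genes that were higher under 2 treatments split evenly. Aars1 and Cars1, the alanine and cysteine enzymes, were higher under Ad.DKK-1 and FJ9. Lars1 and Mars1, the leucine and methionine enzymes, were higher under both compounds, and Nars1 and Tars1, the asparagine and threonine enzymes, under Ad.DKK-1 and ICG-001. Cars1 had levels of 10.82 with Ad.DKK-1 and 9.90 with Ad.GFP, 10.55 with ICG-001 and 10.14 with its vehicle, and 10.74 with FJ9 and 10.07 with its vehicle. Mars1 had levels of 10.88 with Ad.DKK-1 and 10.33 with Ad.GFP, 11.32 with ICG-001 and 10.47 with its vehicle, and 11.34 with FJ9 and 10.46 with its vehicle. For Cars1 the largest difference (0.92) was under Ad.DKK-1, and for Mars1 it was under FJ9 (0.88).

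Lars1 showed the same arrangement as Mars1, with levels of 10.73 with Ad.DKK-1 and 10.22 with Ad.GFP, 11.18 with ICG-001 and 10.48 with its vehicle, and 11.27 with FJ9 and 10.43 with its vehicle. Tars1 stood at 11.72 with Ad.DKK-1 and 10.68 with Ad.GFP, 11.62 with ICG-001 and 10.87 with its vehicle, and 11.31 with FJ9 and 10.97 with its vehicle. Nars1 stood at 12.17 with Ad.DKK-1 and 11.23 with Ad.GFP, 12.12 with ICG-001 and 11.38 with its vehicle, and 12.04 with FJ9 and 11.52 with its vehicle. The FJ9 difference of Tars1 was 0.34, its smallest. Aars1 was the most even member, with differences of 0.59 under Ad.DKK-1, 0.54 with ICG-001 and 0.62 with FJ9.

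Gars1, Hars1, Iars1, Farsa and Farsb were at least 1.5-fold higher under Ad.DKK-1 only by this count. Farsa and Farsb encode the subunits of the same phenylalanine enzyme, which works with both present. Farsb had levels of 10.89 with Ad.DKK-1 and 9.70 with Ad.GFP, 10.64 with ICG-001 and 10.08 with its vehicle, and 10.78 with FJ9 and 10.19 with its vehicle. Farsa had levels of 10.18 with Ad.DKK-1 and 9.52 with Ad.GFP, 9.43 with ICG-001 and 9.48 with its vehicle, and 9.78 with FJ9 and 9.59 with its vehicle. The differences of Farsb thus exceeded those of Farsa under each treatment, 1.19 against 0.66 for Ad.DKK-1, 0.56 against −0.04 for ICG-001 and 0.58 against 0.20 for FJ9. A second, dimmer probe set of Hars1 is counted only in the alternatives. Hars1, the histidine enzyme, differed by 0.79 under Ad.DKK-1, 0.29 with ICG-001 and 0.13 with FJ9. Gars1 and Iars1, the glycine and isoleucine enzymes, differed by 0.60 and 0.77 under Ad.DKK-1 and by between 0.34 and 0.42 under the compounds.

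Kars1, Qars1 and Rars1, the lysine, glutamine and arginine enzymes, were past 1.5-fold under no treatment, and all are members of the complex. Qars1 had levels of 10.53 with Ad.DKK-1 and 10.60 with Ad.GFP, 9.86 with ICG-001 and 10.34 with its vehicle, and 10.74 with FJ9 and 10.33 with its vehicle. Its differences were −0.07 under Ad.DKK-1, −0.48 with ICG-001 and 0.41 with FJ9, the lowest cytosolic values under the virus and under ICG-001. Kars1 had levels of 10.76 with Ad.DKK-1 and 10.54 with Ad.GFP, 11.06 with ICG-001 and 10.50 with its vehicle, and 11.04 with FJ9 and 10.95 with its vehicle. The vehicle arrays of Kars1 differed by 0.45, the widest such gap of the cytosolic genes. Against the other compound's vehicle, Kars1 differed by 0.11 for ICG-001 and 0.54 for FJ9, so the order of the compounds turned with the vehicle chosen.

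The cytosolic genes were counted by membership of the multi-tRNA synthetase complex. The complex holds the enzymes encoded by Eprs1, Iars1, Kars1, Lars1, Mars1, Qars1 and Rars1. Under Ad.DKK-1, 2 of these 7 genes were at least 1.5-fold higher (Eprs1 and Iars1), as were all 12 cytosolic genes outside the complex. The medians were 0.51 in the complex and 0.93 outside it. Under ICG-001 the counts were 3 of 7 and 6 of 12 with medians of 0.58 in both groups, and under FJ9 they were 3 of 7 and 6 of 12 with medians of 0.41 and 0.59. With each array centred on its median, the Ad.DKK-1 count in the complex was 4 of 7 and the count outside stayed at 12 of 12. These are counts of genes on 1 pair of arrays, and no test between the groups was made. As deposited, the shares over all genes were 14.5%, 12.6% and 11.6% under Ad.DKK-1, ICG-001 and FJ9.

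The cytosolic genes were also counted by catalytic class. Of the 10 class I genes, taking Eprs1 by its glutamyl part, 6 were higher under Ad.DKK-1, 6 with ICG-001 and 7 with FJ9. Of the 9 class II genes, 8 were higher under Ad.DKK-1, 3 with ICG-001 and 2 with FJ9. The class II median was 0.79 under Ad.DKK-1, 0.55 with ICG-001 and 0.42 with FJ9, and the class I median was 0.85, 0.65 and 0.74 in the same order. With centred arrays the ICG-001 counts were 7 of 10 in class I and 7 of 9 in class II, and the FJ9 counts were 7 of 10 and 2 of 9. No test between the classes was made. As deposited, 14.5%, 12.6% and 11.6% of all genes were higher under Ad.DKK-1, ICG-001 and FJ9.

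Among the mitochondrial genes, Tars2, the threonine enzyme, had the largest difference. Its level was 8.32 with Ad.DKK-1 and 8.05 with Ad.GFP, 9.13 with ICG-001 and 7.87 with its vehicle, and 8.67 with FJ9 and 7.91 with its vehicle. The 3 controls lay within 0.18 of each other, and the ICG-001 difference of 1.27 ranked 108 among 10025 genes. Fars2, which charges phenylalanine as a single chain, had levels of 8.73 with Ad.DKK-1 and 8.18 with Ad.GFP, 8.77 with ICG-001 and 8.10 with its vehicle, and 9.11 with FJ9 and 8.01 with its vehicle. Its FJ9 difference of 1.11 ranked 166. All treated arrays lay above all controls for both genes.

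Rars2, the arginine enzyme, was lower with FJ9 than with FJ9's own vehicle. Its level was 8.25 with Ad.DKK-1 and 7.42 with Ad.GFP, 8.43 with ICG-001 and 7.32 with its vehicle, but 7.59 with FJ9 and 7.78 with its vehicle. The vehicle arrays of Rars2 differed by 0.46, the widest upward gap of all 30 genes. Against the other compound's vehicle Rars2 differed by 0.65 for ICG-001 and 0.27 for FJ9, so its sign under FJ9 turned with the vehicle chosen. Hars2 and Nars2, the histidine and asparagine enzymes, had their largest difference under ICG-001 against its own vehicle. Hars2 differed by 0.60 under Ad.DKK-1, 0.92 with ICG-001 and 0.35 with FJ9. Its vehicle arrays differed by 0.34, and against the other compound's vehicle it differed by 0.59 for ICG-001 and 0.68 for FJ9. Nars2 differed by 0.26, 0.91 and 0.58 in the same order. Hars1 and Hars2 are related in sequence, and whether their probes keep them apart was not tested.

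Lars2, the leucine enzyme, was at least 1.5-fold higher under ICG-001 by this count (0.74) and differed by 0.01 under Ad.DKK-1 and 0.19 under FJ9. Vars2 and Yars2, the valine and tyrosine enzymes, differed by 0.33, 0.63 and 0.69 for Vars2 and by 0.64, 0.51 and 0.71 for Yars2 under Ad.DKK-1, ICG-001 and FJ9. Pars2, the proline enzyme, was past 1.5-fold under none, with differences of 0.44, 0.31 and 0.26. Aars2, the alanine enzyme, had levels of 6.58 with Ad.DKK-1 and 7.25 with Ad.GFP, 7.33 with ICG-001 and 7.46 with its vehicle, and 7.18 with FJ9 and 6.98 with its vehicle. Its vehicle arrays differed by −0.48, more than its difference under either compound, and against the other compound's vehicle it differed by 0.34 for ICG-001 and −0.29 for FJ9. Sars2, the serine enzyme, had levels of 7.43 with Ad.DKK-1 and 7.70 with Ad.GFP, 8.17 with ICG-001 and 7.71 with its vehicle, and 8.00 with FJ9 and 7.89 with its vehicle. Its difference was below 0 under Ad.DKK-1 and above 0 under both compounds.

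For 9 amino acids a cytosolic and a mitochondrial gene were both measured as a single pair. Under Ad.DKK-1 the cytosolic gene had the larger difference in 8 of the 9 pairs, with arginine the exception. Under ICG-001 it had the larger difference in 3 of 9 (alanine, serine and tyrosine), and under FJ9 in 6 of 9. Against the other compound's vehicle, a setting added after the values were seen, the counts were 5 of 9 for ICG-001 and 7 of 9 for FJ9. Between the vehicle arrays the count was 3 of 9. The vehicle differences also spread more over the mitochondrial set, with a standard deviation of 0.25 over genes against 0.14 for the cytosolic set. The part of that spread in the gaps was not tested. The median of cytosolic minus mitochondrial difference was 0.68 under Ad.DKK-1, −0.04 with ICG-001 and 0.23 with FJ9, and −0.08 between the vehicles. Against the other vehicle the medians were 0.04 for ICG-001 and 0.06 for FJ9, so the ICG-001 sign turned. Alanine had the widest gap under Ad.DKK-1, 0.59 for Aars1 and −0.68 for Aars2. Histidine had the widest gap the other way under ICG-001, 0.29 for Hars1 and 0.92 for Hars2. For phenylalanine, Fars2 exceeded both Farsa and Farsb under either compound and neither of them under Ad.DKK-1.

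**Figure D3:**
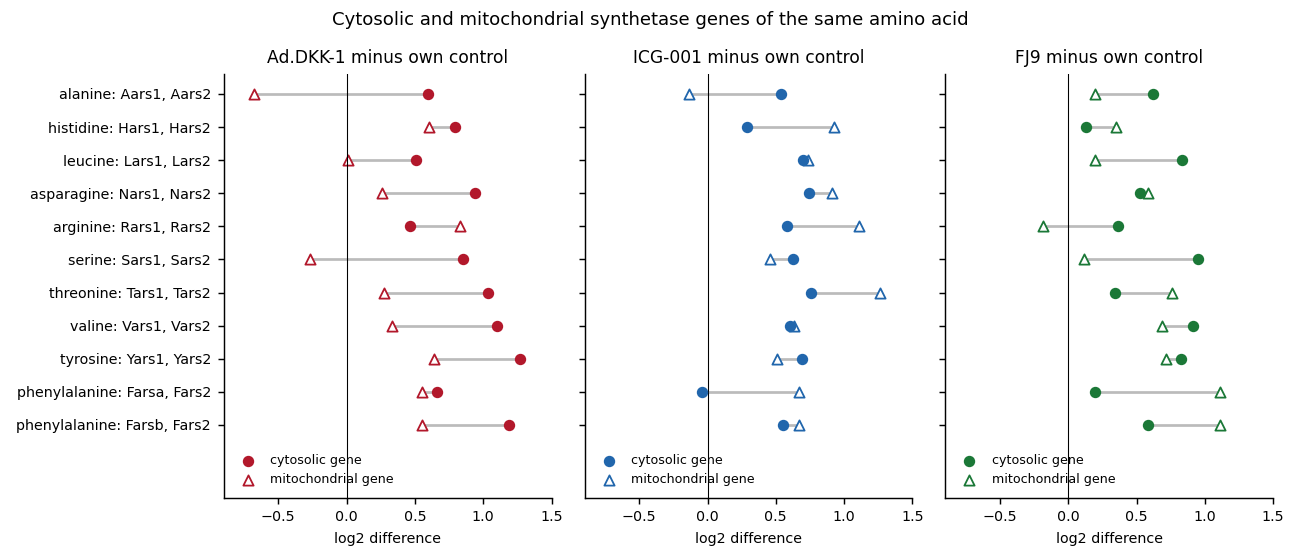
Treated minus own control difference (log2) of the cytosolic gene (filled circle) and the mitochondrial gene (open triangle) for the same amino acid, 1 row a pair and 1 panel a treatment, with phenylalanine shown for Farsa and for Farsb. Circles lie right of triangles in 8 of the 9 single pairs under Ad.DKK-1, 3 with ICG-001 and 6 with FJ9.

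The mean difference over the 3 treatments could be tested with limma, which treats the treatments as if they estimated 1 common difference and leaves 2 residual degrees of freedom. The treatments differ and do not replicate one another. A call says only that the mean over them differs from 0. After Benjamini-Hochberg adjustment over 10025 genes, 11 of the 19 cytosolic synthetases rose at an adjusted p under 0.05 and none fell, against 3.56% of all genes that rose and 5.02% that fell. Of the 11 mitochondrial synthetases 1 rose, Fars2, and none fell. The standard errors, which follow a trend on level, ran from 0.18 to 0.21 for the cytosolic genes and 0.21 to 0.28 for the mitochondrial genes. Tars2 with a mean of 0.77 was thus not called while Cars1 with 0.66 was. The part of this in the gap between the 2 counts was not tested. At an unadjusted p under 0.05, 15 cytosolic and 5 mitochondrial genes were higher, against 11.9% of all genes, and none was lower, against 13.1%. Without the Ad.DKK-1, ICG-001 or FJ9 pair, 7, 4 and 8 cytosolic genes rose, and without limma's trend on level 3 rose.

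The largest mean was that of Eprs1, 0.96 ± 0.19 (SE) on the log2 scale with limma's adjusted p of 0.00678. Yars1 followed with 0.93 ± 0.19 (adjusted p = 0.00808, limma), and Vars1 with 0.87 ± 0.20 (adjusted p = 0.0138). These 3 genes were called under all 8 alternative fits, with adjusted p up to 0.0333, 0.0372 and 0.0471. Sars1 (0.81), Wars1 (0.79), Farsb (0.77), Mars1 (0.76), Nars1 (0.74), Tars1 (0.71), Lars1 (0.68) and Cars1 (0.66) rose with adjusted p between 0.0128 and 0.0455. Of the 8 alternative fits, 7 called Sars1, 6 Wars1, 5 each Farsb, Mars1 and Nars1, 4 Lars1, 3 Tars1 and 1 Cars1. Fars2 rose by 0.78 ± 0.23 (adjusted p = 0.0491, limma), and it was called under none of the 8 alternatives. Tars2 had a mean of 0.77 ± 0.25 and missed the threshold (adjusted p = 0.0714). Aars1 also missed it (0.59 ± 0.18, adjusted p = 0.0561), although its 3 differences were the most alike, with a range of 0.08. These standard errors are moderated by limma toward those of other genes of similar level. They are not the spread of a gene's 3 differences alone. Qars1 had the mean nearest to 0, −0.05 ± 0.21 (adjusted p = 0.907).

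**Figure D4:**
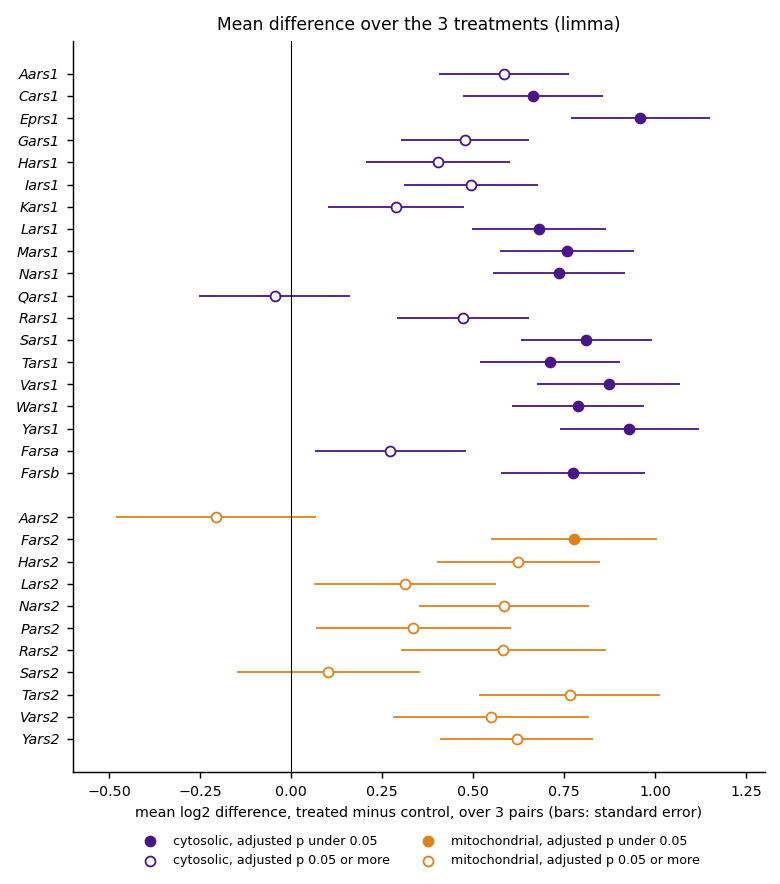
Mean log2 difference over the 3 treated and control pairs with its standard error from limma, for the 30 measured synthetases. Filled points passed an adjusted p of 0.05: 11 of 19 cytosolic genes and 1 of 11 mitochondrial genes, Fars2.

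Scaffold proteins hold the enzymes of the complex together, and their 3 genes had differences above 0 under every treatment and between the vehicle arrays. At least 1.5-fold higher were 3 under Ad.DKK-1, 2 with ICG-001 and 2 with FJ9, against 14.5%, 12.6% and 11.6% of all genes. Aimp1 differed by 0.79 under Ad.DKK-1, 1.11 with ICG-001 and 0.76 with FJ9, and rose in the mean (adjusted p = 0.0191, limma). Its vehicle arrays differed by 0.51. Eef1e1 differed by 0.79, 1.19 and 0.56 and rose in the mean (adjusted p = 0.0146). Aimp2 differed by 0.78, 0.42 and 0.73 and missed the threshold (adjusted p = 0.0606). Under Ad.DKK-1 the 3 scaffold genes thus differed by almost the same amount, while 5 of the 7 enzymes of the complex stood under 1.5-fold.

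Among 8 genes for tRNA export, editing and elongation, 2 were higher under Ad.DKK-1, 3 with ICG-001 and 4 with FJ9. The shares over all genes were 14.5%, 12.6% and 11.6%. The medians of the 8 genes were 0.05, 0.53 and 0.55. Over all genes 3.56% rose in the mean, and 2 of the 8 did. These were Xpot, the nuclear exporter of tRNA, with differences of 1.08, 0.72 and 1.02 (adjusted p = 0.00565, limma), and Gtpbp2, a factor for stalled ribosomes, with 1.57, 1.14 and 1.65 (adjusted p = 0.000577). Eef1a1, which carries charged tRNA to the ribosome, differed by 0.04, −0.28 and 0.23. Of 12 measured genes for tRNA modification and processing, 10 were higher under Ad.DKK-1, 5 with ICG-001 and 7 with FJ9. The same shares of all genes, 14.5%, 12.6% and 11.6%, stand beside them. The medians of the 12 genes were 0.90, 0.56 and 0.63. Of the 11 past the level filter, 5 rose in the mean. Trmt61a, a subunit of a tRNA methyltransferase, differed by 1.57, 0.91 and 0.51 and was among them (adjusted p = 0.0183).

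Genes that work beside the mitochondrial synthetases were counted the same way. Of 12 measured, 3 were higher under Ad.DKK-1, 5 with ICG-001 and 2 with FJ9, with medians of 0.23, 0.45 and 0.34. All genes past the level filter gave 14.5%, 12.6% and 11.6%, and the FJ9 share of 16.7% lay near its own. The count was 1 between the vehicle arrays, against 2.44% of all genes. In the mean 3.56% of all genes rose and 1 of these, Trmu (differences of 0.88, 0.95 and 1.00, adjusted p = 0.0333, limma). Trmu modifies the wobble base of mitochondrial tRNAs. Qrsl1, a subunit of the enzyme that makes mitochondrial glutaminyl-tRNA, had the largest compound differences, 1.27 under ICG-001 and 1.11 under FJ9, and 0.18 under Ad.DKK-1. Mto1 differed by 1.07 under ICG-001 but by 0.64 between the vehicle arrays.

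Genes of the integrated stress response, the pathway of GCN2 and ATF4, stood beside the synthetases. Of 18 measured, 12 were higher under Ad.DKK-1, 9 with ICG-001 and 9 with FJ9, against 14.5%, 12.6% and 11.6% of all genes. In the same order 2, 0 and 1 were lower, against 20.8%, 13.1% and 14.8% of all genes. In the mean 7 rose, against 3.56% of all genes. Trib3, a pseudokinase that ATF4 and CHOP induce, differed by 2.76, 1.66 and 2.84 (adjusted p = 9.65e-05, limma). Its vehicle arrays differed by −0.61, past 1.5-fold, so the order of the compounds for Trib3 depends on the vehicle chosen. Ddit3, which encodes CHOP, differed by 2.73, 1.19 and 1.38 (adjusted p = 0.00107). Atf4 mRNA differed by 1.06 under Ad.DKK-1, 0.15 with ICG-001 and 0.74 with FJ9 and missed the threshold (adjusted p = 0.06). Eif2ak4, which encodes GCN2, differed by −0.64, −0.28 and −0.88. Protein, phosphorylation and tRNA charging were not measured, and the part of this pathway in the synthetase values was not tested.

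Of 15 measured genes for amino acid synthesis, 13, 9 and 10 were higher under Ad.DKK-1, ICG-001 and FJ9, and 9 rose in the mean. Over all genes 14.5%, 12.6% and 11.6% were higher and 3.56% rose in the mean. Asns, asparagine synthetase, differed by 0.75, 0.52 and 0.91 (adjusted p = 0.0233, limma). Cth, which makes cysteine from cystathionine, differed by 2.81, 2.77 and 2.64 (adjusted p = 4.94e-05). Its level was 8.51 with Ad.DKK-1 and 5.70 with Ad.GFP, 9.10 with ICG-001 and 6.33 with its vehicle, and 9.29 with FJ9 and 6.66 with its vehicle. The Ad.GFP level and that of ICG-001's vehicle lay under the filter level of 6.39, which the mean of Cth passed with the treated arrays included. The size of its differences thus rests on dim controls. Of 13 measured amino acid transporters, 10, 8 and 9 were higher, and 8 of the 12 past the level filter rose in the mean. Slc7a11, the cystine importer, differed by 2.41, 1.25 and 3.20 (adjusted p = 0.000353), with −0.57 between the vehicle arrays. The medians of these groups, 1.05, 0.72 and 0.83 for synthesis and 0.95, 0.72 and 1.34 for transport, stood above the cytosolic synthetase medians under every treatment. These groups, the stress response genes and the synthetases themselves were all listed with earlier results of these arrays known, so their direction adds no independent evidence.

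**Figure D5:**
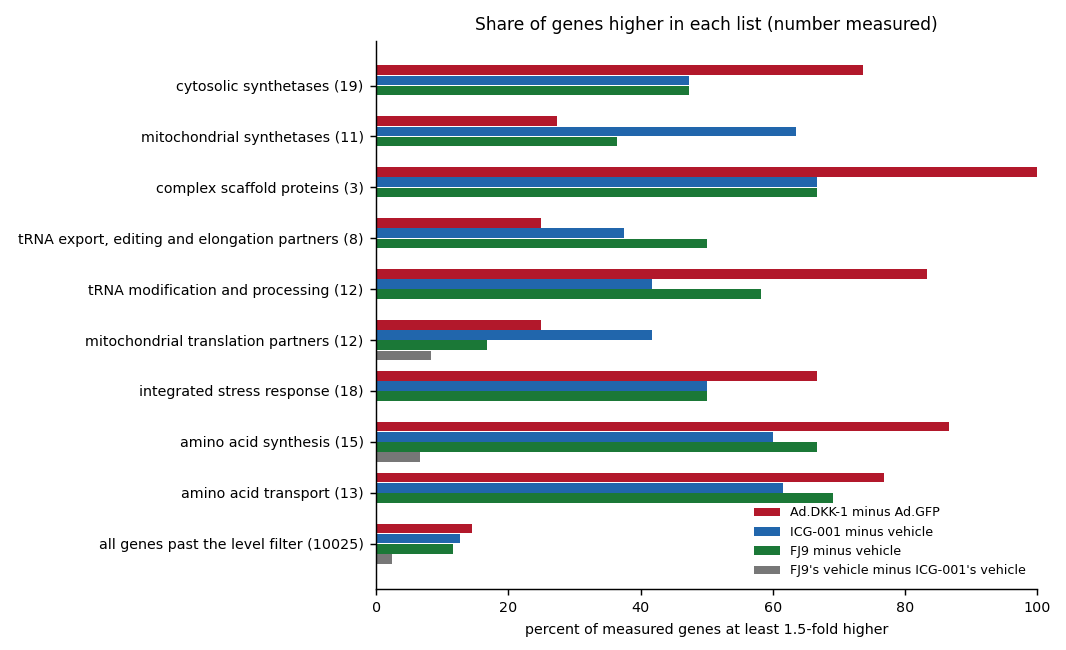
Percent of the measured genes of each list that were at least 1.5-fold higher under Ad.DKK-1, ICG-001 and FJ9 (coloured bars) and between the vehicle arrays (grey bars), with the number measured beside each name. The bars stand at 73.7%, 47.4% and 47.4% for the cytosolic synthetases and at 27.3%, 63.6% and 36.4% for the mitochondrial synthetases, beside 14.5%, 12.6% and 11.6% of all genes past the level filter.

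The controls bear on these values in 2 ways. Against both vehicle arrays at once, 8 of 19 cytosolic and 6 of 11 mitochondrial genes were at least 1.5-fold higher with ICG-001 (8.33% of all genes), and 8 and 4 with FJ9 (9.45%). With Ad.GFP against the vehicle arrays, which differ in virus, serum and time, the cytosolic median was −0.11 against ICG-001's vehicle and −0.14 against FJ9's, and no cytosolic gene was past 1.5-fold. The mitochondrial medians were 0.18 and 0.16, and Pars2 was past 1.5-fold against ICG-001's vehicle (0.74).

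Marker levels of stellate and other liver cells also differed between the arrays. The log2 of the summed linear levels of 10 macrophage markers was 9.20 with Ad.DKK-1 and 10.36 with Ad.GFP, 9.45 with ICG-001 and 9.97 with its vehicle, and 9.76 with FJ9 and 10.35 with its vehicle, and 7 of the 10 lay under the level filter. The same measure of 13 stellate cell markers was 15.28 with Ad.DKK-1 and 15.79 with Ad.GFP, 15.55 with ICG-001 and 15.73 with its vehicle, and 15.34 with FJ9 and 15.66 with its vehicle. For 9 measured hepatocyte markers, 6 under the filter, it was 9.22 with Ad.DKK-1 and 9.42 with Ad.GFP, 9.71 with ICG-001 and 10.08 with its vehicle, and 9.60 with FJ9 and 9.63 with its vehicle. Of the sinusoidal endothelial markers 4 were measured and of the cholangiocyte markers 3, with 3 and 1 under the filter. Of the stellate markers 7, 2 and 6 were at least 1.5-fold lower under Ad.DKK-1, ICG-001 and FJ9, and of the macrophage markers 8, 5 and 3, against 20.8%, 13.1% and 14.8% of all genes past the level filter. The ICG-001 count of stellate markers was near that share. The array value has no true 0, and the lowest macrophage marker lay between 4.11 and 4.99 on each array. The part of these shifts in the synthetase differences was not tested.

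Under each scaling tried, the medians of both synthetase groups stayed above 0. With each array centred on its median, the all-gene split under ICG-001 was 2218 higher and 754 lower, against 1267 and 1314 as deposited, and under Ad.DKK-1 it was 1874 and 1681, against 1449 and 2082. The cytosolic count under ICG-001 was then 14 of 19, with a median of 0.76. Over the scalings, vehicle and probe set choices tried, the cytosolic medians ran from 0.79 to 0.89 under Ad.DKK-1, 0.54 to 0.76 under ICG-001 and 0.54 to 0.60 under FJ9. The mitochondrial medians ran from 0.33 to 0.44, 0.60 to 0.85 and 0.29 to 0.61 in the same order.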

How the data were processed

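RNA of 6 pools of stellate cells, 1 array a group, was measured on Affymetrix whole-transcript arrays. Per the submitters' processing notes, the authors made the deposited log2 values with RMA in Affymetrix Expression Console. The sources used here give no versions. RMA brings arrays to a common distribution, yet the deposited medians differ, so other scalings were tried. Of 26988 probe sets, 15092 had 1 gene symbol in the platform annotation, 323 had several and the rest are unnamed here. Entrez identifiers of 15062 matched RefSeq's GRCr8 table, used for names alone. Counts over all genes and the test used the 10025 of 14322 genes whose mean level lay above the lowest 30% (above 6.39).

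Differences and counts were made with pandas 2.3.3, and the test was limma 3.58.1 in R 4.3.3 (lmFit, eBayes with a trend, the treated and control pair as a block, two-sided, Benjamini-Hochberg), tested on simulated data. The number of arrays limits the precision. The standard errors and p-values of limma combine a gene's own spread between these pairs with the spread of other genes of similar level. They cover no spread between replicate pools of a treatment. The synthetases and all gene lists were chosen with earlier results of these data known. All listed synthetases were accounted for. Of each other list, genes among the 4 largest differences of a treatment could be named, besides Atf4, Ddit3, Trib3, Asns, Aimp1, Aimp2, Eef1e1 and Xpot. Eef1a1, Eif2ak4, Vim, Col1a1 and Col1a2 were named for their roles after their values were seen. Gene and promoter sequences were not used here.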

Additional observations from a re-analysis of the deposited data

Results flagged for a closer look

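Qars1, the glutamine enzyme of the cytosol, moved in opposite directions under the compounds. Its difference was 0.41 with FJ9 and −0.48 with ICG-001, so the FJ9 difference minus the ICG-001 difference was 0.89 on the log2 scale. With the other compound's vehicle as control the differences were 0.40 and −0.47. Sars2, the serine enzyme of mitochondria, differed by 0.46 with ICG-001 and −0.27 with Ad.DKK-1, so the ICG-001 difference minus the Ad.DKK-1 difference was 0.73. Each group was 1 array, and neither difference was tested.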

How the results depend on the processing

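All medians of both synthetase groups under the treatments stayed above 0 under every alternative tried. At 2-fold, 5, 0 and 0 cytosolic genes were higher under Ad.DKK-1, ICG-001 and FJ9, and 0, 2 and 1 mitochondrial genes. Centring gave 14 cytosolic genes and a median of 0.756 under ICG-001. Aars2, the single lower mitochondrial gene under Ad.DKK-1, left the count (0 genes) with centring, quantile normalization, loess or 2-fold. Against the other vehicle the mitochondrial median under FJ9 was 0.61, and the cytosolic gene had the larger difference in 5 of the 9 amino acids under ICG-001, a setting added after the values were seen. One mitochondrial gene (1 of 11) was higher between the vehicles with centring or quantile normalization. In limma, 357 genes rose as fitted, 167 without the pair block, 221 without the trend and 165 to 269 leaving out a pair, which leaves 1 residual degree of freedom. Those that fell numbered 503, and 247 with centring, 255 without the block and 405 to 453 leaving out a pair. Cytosolic calls numbered 11 as fitted, 3 without the trend, 8 without the block, and 7, 4 and 8 without the Ad.DKK-1, ICG-001 and FJ9 pair. Mitochondrial calls were 0 with centring, quantile normalization, no level filter, no block or no trend, and 0 to 1 leaving out a pair, the 1 being Tars2 without the Ad.DKK-1 pair. Mean differences changed sign for Qars1 (0.044 centred, and −0.274 without the FJ9 pair to 0.171 without the ICG-001 pair), Aars2 (−0.407 without the FJ9 pair to 0.028 without the Ad.DKK-1 pair) and Sars2 (−0.078 without the ICG-001 pair to 0.286 without the Ad.DKK-1 pair). The causes were not tested. With 1 array a group there were no replicates to pair, and the only pairing was the block of each treatment with its own control. No detection calls were used, so signal over background is unknown for the dimmer members.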
